A study of Glycine max with 6 samples.

Results

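The nuclear genes of soybean (Glycine max) that encode proteins of the plastid and mitochondrial ribosomes are described here. They were picked by their deposited protein descriptions: a text had to name a 30S, 50S, 28S, 39S or 54S ribosomal protein, or a ribosomal protein with the word chloroplastic or mitochondrial, and texts with 40S or 60S were left out. This gave 80 of 36827 genes. Of these, 49 were described as chloroplastic, 29 as mitochondrial and 2 with neither word. The rule reads only those texts, so 112 further genes whose KEGG text names a ribosomal protein and whose GO component names a plastid or mitochondrion are not among the members.

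RNA came from trifoliolate leaves of soybean plants aged 30 days. The libraries labelled GmRAV1-ox number 3, and their genotype field reads GmRAV1. The 3 labelled DN50 have wild type in that field, and no label gives a treatment. The labels name neither a promoter nor a line for GmRAV1-ox, and they do not say whether replicates came from separate plants, so a p-value here speaks of the spread among these libraries, which may be technical. Library totals lay between 7208496 and 7684540 estimated counts, in tables that list between 32456 and 34028 genes each.

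RAV transcripts, which should mark the labels, did not separate them clearly. The 3 RAV genes that passed the low-count filter had folds from 0.834 to 0.975 and adjusted p from 0.673 to 0.961 by edgeR. Glyma01g22260.1, described as a TEM1 repressor of the RAV family, stood at 19.3, 16.1 and 28.8 scaled FPKM (a length-normalized level, defined below) in GmRAV1-ox replicates 1 to 3 and at 20.3, 18.4 and 27.8 in DN50 replicates 1 to 3, a fold of 0.967 (95% interval 0.644 to 1.45). Another gene described as TEM1, Glyma20g32730.1, failed the filter, with 12, 23 and 2 counts in GmRAV1-ox and 1, 4 and 3 in DN50, so that GmRAV1-ox replicates 1 and 2 were above DN50 and replicate 3 was not. The files do not say which gene the label GmRAV1 refers to, so directions below rest on the labels. On the first principal component, which held 62.6% of the variance, GmRAV1-ox replicate 3 (-16.5) and DN50 replicate 2 (-10.3) lay between the other 4 libraries. The leaf label was checked against its markers: the 30 genes for the small chain of ribulose bisphosphate carboxylase and the chlorophyll-binding proteins averaged up to 40120.3 scaled FPKM, and the 1 gene described as a seed beta-conglycinin was at 0 in all libraries but DN50 replicate 2, where it stood at 0.136.

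Plastids and mitochondria keep ribosomes of a bacterial kind, with a small and a large subunit. A plastid ribosome is built from proteins made in the cytosol and imported, together with proteins encoded in the plastid's own genome, and it makes core subunits of the photosystems, the ATP synthase and the large chain of ribulose bisphosphate carboxylase. The mitochondrial ribosome makes a small set of respiratory chain subunits. In leaves, the plastid machinery is built mostly while young cells turn their proplastids into chloroplasts.

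Levels are given as scaled FPKM, which is the deposited FPKM (fragments per kilobase, set to library depth) divided by the TMM scaling factor of its library. Because FPKM is per length, levels can be set side by side between genes. For short genes the deposited FPKM is higher than the counts and the listed gene-model length would give, so their levels compare less exactly. Genes described as chloroplastic covered a wide range, with a median of 92.3 and means over the 6 libraries from 0.0913 to 2024. Genes described as mitochondrial lay lower and closer together, with a median of 14.7 and a highest mean of 29.2. Within the chloroplastic texts the levels lay in 2 ranges that went with the GO component term in the same table. Of the 30 genes with a plastid GO term, 26 stood above 30, with a median of 243. Of the 19 without one, 1 stood above 30, and their median of 11.2 was close to that of the mitochondrial texts.

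**Figure D1:**
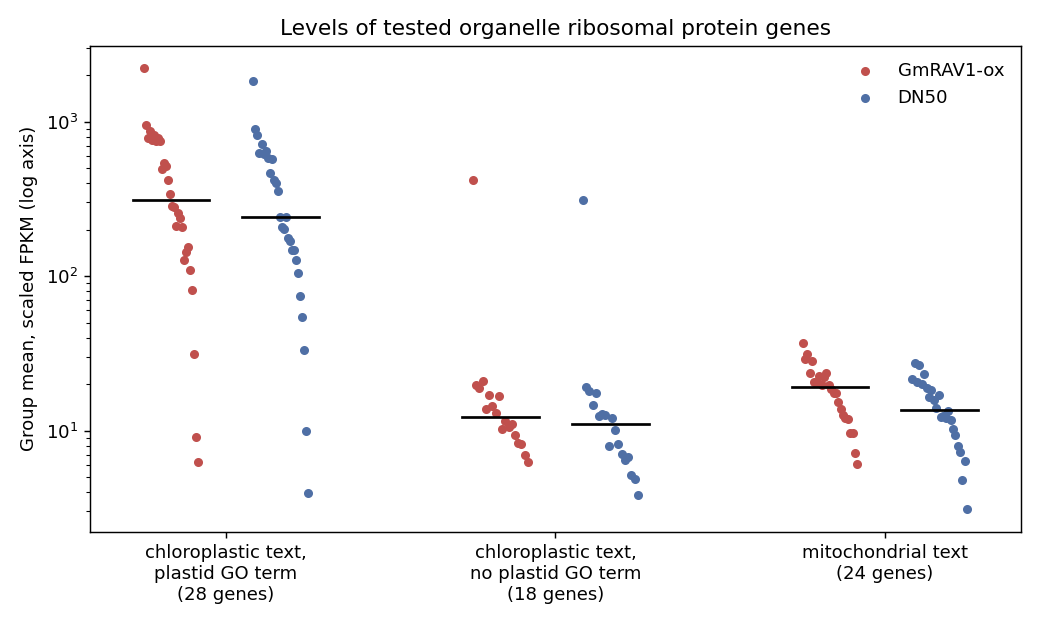
Group means of scaled FPKM (log axis) for the 70 tested genes with a compartment in their text, as 1 point per gene, GmRAV1-ox left of DN50, with the median as a bar. Chloroplastic texts with a plastid GO term (28 genes) reach 2024 over all libraries, while those without one (18 genes) lie among the mitochondrial texts (24 genes) apart from the S5 gene Glyma07g31830.1.

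The exception without a plastid GO term was Glyma07g31830.1, an S5 gene at 363, whose better expressed copy Glyma13g24640.1 does carry the term. The other 18 were 3 L12, 3 L9, 2 L1, 2 L18, 2 L19-1, 2 L22 and 2 L3-2 genes, 1 S17 gene and 1 L23 gene. Of these, Glyma18g46170.1 (L22, at 12.8) and the L3-2 genes Glyma13g35150.1 (6.65) and Glyma12g35360.1 (5.04) have a mitochondrial GO term against their chloroplastic text. Over all 49 chloroplastic texts, 5 have a mitochondrial GO term, 2 of them beside a plastid term. Of the 29 mitochondrial texts, 17 have a mitochondrial GO term and 2 a plastid term as well. The word in the text is thus not a measurement of where a protein goes, and the compartment names below are those of the texts.

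Where KEGG places genes of both texts in 1 family, the better expressed chloroplastic gene stood above the better expressed mitochondrial gene in 4 of 5 families. The ratio of the higher means was 83.9 for L7/L12 (2024 chloroplastic, 24.1 mitochondrial), 36.6 for L27 (805 and 22.0), 25.2 for L4 (477 and 18.9) and 6.96 for S9 (135 and 19.4). In the fifth family, L11, the only chloroplastic text, Glyma13g10300.1, stood at 5.11 and the mitochondrial maximum at 25.9. L7/L12 forms the flexible stalk that recruits translation factors and is present in several copies per bacterial ribosome.

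In the comparison of the libraries labelled GmRAV1-ox with DN50, most tested members had estimates slightly above 0, and none passed the test. A low-count filter kept 71 of the 80 members. With the quasi-likelihood test of edgeR, Benjamini-Hochberg adjusted over 26272 genes, 0 of the 71 were called at an adjusted p under 0.05, where the background share called is 0.700%. At an unadjusted p under 0.05, 13 of the 71 were higher and 0 lower, where 10.6% of all tested genes were higher. DESeq2 called 1 chloroplastic member, Glyma12g02850.1, at an adjusted p of 0.0463, where it called 5.81% of all genes. Limma on FPKM called 0 members, where it called 100 of 28087 genes with a pseudocount of 1 and 71 with 0.1.

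For the chloroplastic texts the median log2 fold change was 0.39 over 46 tested genes, from -0.33 to 1.07, with 38 above 0 and 8 below. For the mitochondrial texts it was 0.44 over 24, from -0.17 to 1.04, with 22 above 0 and 2 below. The median of all tested genes was 0.01, with 51.1% above 0. With no scaling factors the chloroplastic median was 0.59 and the median of all genes 0.20. In that fit 67 of the 71 members were above 0, as were 17570 of all 26272 genes. All 3 GmRAV1-ox libraries lay above all 3 DN50 libraries for 20 of the 46 and 6 of the 24, and below them for 0, where the background share is 12.7% above and 13.4% below. All members were measured in the same 6 libraries, so these counts are not independent observations.

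**Figure D2:**
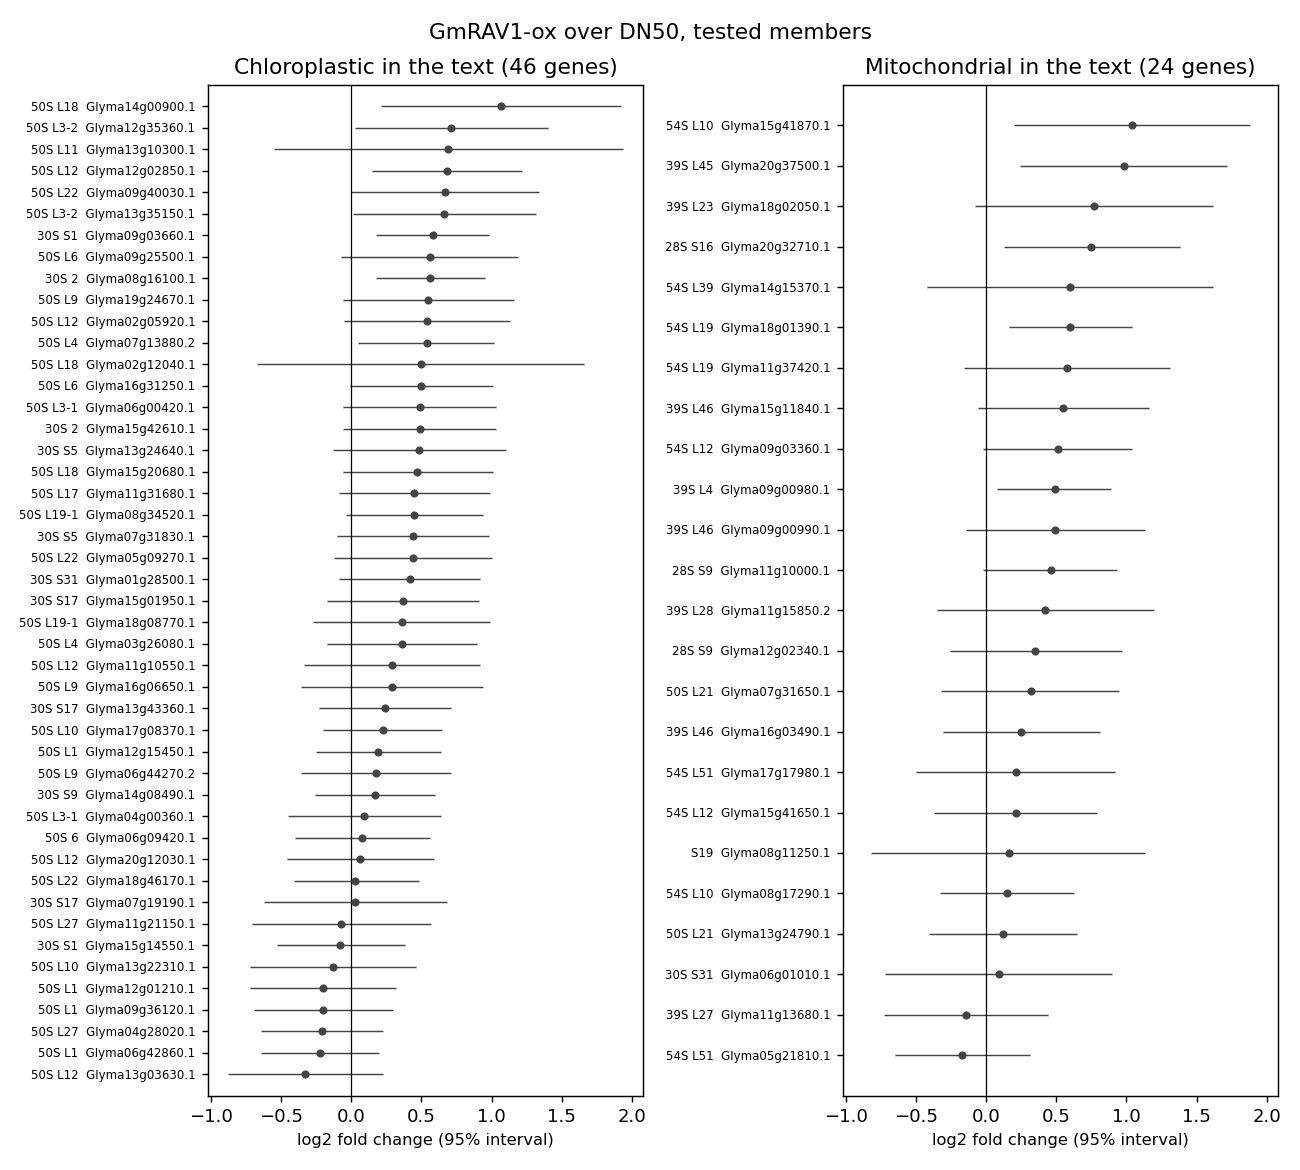
Log2 fold change of GmRAV1-ox over DN50 from edgeR for 46 chloroplastic (left) and 24 mitochondrial texts (right), each a point with its 95% interval, sorted by estimate. Most points lie right of 0, between -0.33 and 1.07, and most intervals include 0.

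The values were uneven between libraries. Relative to the DN50 mean on a log2 scale, the median over chloroplastic members stood at 0.21, 0.39 and 0.44 in GmRAV1-ox replicates 1 to 3, against 0.08, 0.17 and -0.24 in DN50 replicates 1 to 3. For mitochondrial members it stood at 0.27, 0.65 and 0.27 in GmRAV1-ox and at -0.08, 0.29 and -0.17 in DN50, so that DN50 replicate 2 lay within the range of the GmRAV1-ox libraries. DN50 replicate 3 was the lowest library for 24 of the 28 tested chloroplastic texts with a plastid GO term. For the 18 without one, DN50 replicate 1 was the lowest for 11 and DN50 replicate 3 for 4. GmRAV1-ox replicate 2 was the highest library for 18 of the 24 mitochondrial members. Without DN50 replicate 3 the chloroplastic median was 0.26 and the mitochondrial median 0.36, and without GmRAV1-ox replicate 2 the mitochondrial median was 0.28.

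**Figure D3:**
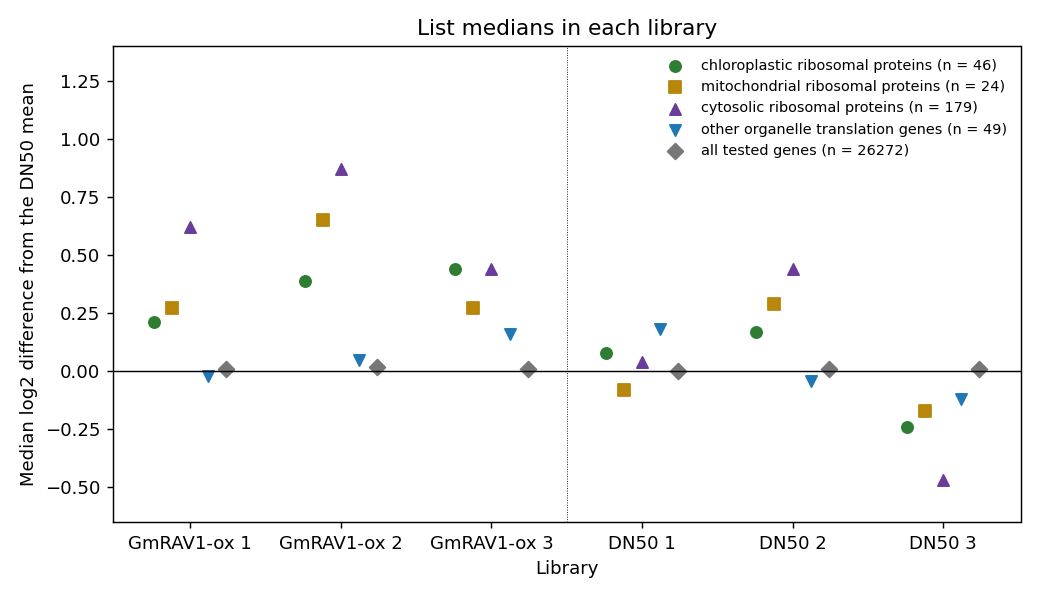
Median log2 difference from the DN50 mean in each library, for chloroplastic, mitochondrial and cytosolic ribosomal protein genes, other organelle translation genes and all tested genes, with GmRAV1-ox libraries left of DN50. The chloroplastic median runs from 0.21 to 0.44 in GmRAV1-ox and from -0.24 to 0.17 in DN50, and the median of all genes stays near 0.

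The summed level of the 49 chloroplastic genes overlapped between the groups, at 12684, 13857 and 14785 scaled FPKM in GmRAV1-ox replicates 1 to 3 and 12754, 12511 and 8889.8 in DN50 replicates 1 to 3. As a share of each library's deposited FPKM, which takes no scaling factor, it was 1.21, 1.45 and 1.21% in GmRAV1-ox, against 0.963, 1.03 and 0.831% in DN50, with no overlap. The sum thus separates the groups on 1 scale and not on the other. The 29 mitochondrial genes summed to 428, 526 and 431 in GmRAV1-ox and to 338, 433 and 304 in DN50, where DN50 replicate 2 overlaps.

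Small subunit proteins of the plastid bind and hold the messenger RNA. S1, which contacts mRNA ahead of the decoding site, had 2 genes. Glyma09g03660.1 stood at 78.5, 93.1 and 71.7 in GmRAV1-ox replicates 1 to 3 and at 53.3, 59.0 and 51.2 in DN50, 1.5-fold (95% interval 1.13 to 1.97), with an adjusted p of 0.134 by edgeR. Its groups did not overlap, and leaving out GmRAV1-ox replicate 3 gave a log2 fold change of 0.64 and an adjusted p of 0.0404, in a fit that called 18.3% of all genes. The other S1 gene, Glyma15g14550.1, stood at 25.8, 34.5 and 34.4 in GmRAV1-ox and at 34.8, 26.7 and 38.5 in DN50, and its groups overlapped. Of the S1 total, Glyma09g03660.1 made up 75.3, 73.0 and 67.6% in GmRAV1-ox and 60.5, 68.8 and 57.1% in DN50. The difference between the copies was not tested.

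The protein described as 30S ribosomal protein 2 is a plastid-specific RNA-binding ribosomal protein with no bacterial counterpart. Its gene Glyma08g16100.1 stood at 94.7, 121 and 115 in GmRAV1-ox and at 79.1, 75.2 and 69.7 in DN50, 1.48-fold (1.13 to 1.93), with the smallest unadjusted p of the members (0.00979) and an adjusted p of 0.133 by edgeR. The copy Glyma15g42610.1 had 227, 245 and 239 in GmRAV1-ox and 205, 187 and 117 in DN50. In both genes each GmRAV1-ox library lay above each DN50 library. KEGG assigns both to a polyadenylate-binding protein, an RNA-binding relative, rather than to a ribosomal protein.

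S5 lines the channel where mRNA enters the small subunit. Glyma13g24640.1, the S5 gene with the highest level of the small subunit members, stood at 763, 872 and 975 in GmRAV1-ox and at 729, 702 and 442 in DN50, 1.4-fold (0.915 to 2.14, adjusted p 0.326 by edgeR). Its lower copy Glyma07g31830.1 showed 355, 453 and 441 in GmRAV1-ox and 335, 355 and 237 in DN50. In both S5 genes the lowest value is that of DN50 replicate 3. The S31 protein is a short basic peptide of the small subunit head, and its gene Glyma01g28500.1 had 738, 854 and 879 in GmRAV1-ox and 659.9, 719 and 480.1 in DN50, 1.33-fold (0.938 to 1.90).

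S17 binds ribosomal RNA early in assembly of the small subunit, and S9 reaches toward the transfer RNA in the peptidyl site. The S17 genes Glyma13g43360.1 and Glyma15g01950.1 averaged 698 and 457 over the libraries, and Glyma07g19190.1, which has no plastid GO term, 19.6. Their log2 fold changes were 0.24, 0.37 and 0.03 in that order. The S9 gene Glyma14g08490.1 averaged 143 in GmRAV1-ox and 128 in DN50.

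In the large subunit, L12 had 5 genes. Glyma11g10550.1, the member with the highest level, stood at 1878, 2162 and 2628 in GmRAV1-ox replicates 1 to 3 and at 2153, 1969 and 1355 in DN50, 1.22-fold (0.792 to 1.89), with overlapping groups. Glyma12g02850.1 stood at 653, 886 and 703 in GmRAV1-ox and at 470.1, 547 and 384 in DN50, 1.61-fold (1.11 to 2.32), with an adjusted p of 0.161 by edgeR and no overlap. The remaining L12 genes averaged 18.4 or less. The lowest estimate of any member belongs to one of them, Glyma13g03630.1, at 14.9, 14.4 and 12.4 in GmRAV1-ox and 19.3, 13.3 and 20.1 in DN50, a fold of 0.797 (0.542 to 1.17).

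L18 binds the 5S ribosomal RNA. The largest fold of any member was that of the minor L18 gene Glyma14g00900.1, at 15.6, 20 and 14.5 in GmRAV1-ox and 4.29, 8.93 and 10.7 in DN50, 2.09-fold (1.15 to 3.79), with an adjusted p of 0.171 by edgeR. The main L18 gene, Glyma15g20680.1, made up 92.9% of the L18 total and averaged 279 in GmRAV1-ox and 202 in DN50 with overlapping groups. The summed level of the 3 L18 genes was 302 ± 54.2 in GmRAV1-ox and 215 ± 41.1 in DN50 (SD, n = 3 each).

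L4 and L22 line the tunnel through which the new protein leaves, and L17 borders its exit. The L4 gene Glyma07g13880.2 stood at 239.5, 259 and 269 in GmRAV1-ox and at 195, 199 and 137 in DN50, 1.45-fold (1.04 to 2.03), with an unadjusted p of 0.0343 and an adjusted p of 0.203 by edgeR. The main L4 gene, Glyma03g26080.1, averaged 536 in GmRAV1-ox and 418 in DN50. L22 is a case of gene transfer: in legumes the gene has left the plastid genome for the nucleus. Its main gene Glyma05g09270.1 stood at 769, 778 and 801 in GmRAV1-ox and at 684, 640.3 and 413 in DN50, 1.36-fold (0.917 to 2.01, adjusted p 0.333 by edgeR), and made up 96.9% of the L22 total. The L17 gene Glyma11g31680.1 averaged 284 in GmRAV1-ox and 209 in DN50.

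L3 and L6 lie near the peptidyl transferase centre and the factor-binding site of the large subunit. The L3-1 genes averaged 765 in GmRAV1-ox and 720.5 in DN50 for Glyma04g00360.1, and 207 in GmRAV1-ox and 148 in DN50 for Glyma06g00420.1. The weakly expressed L3-2 genes had larger folds, 1.59 for Glyma13g35150.1 (unadjusted p 0.0469) and 1.64 for Glyma12g35360.1 (unadjusted p 0.0437), both with no overlap of groups and adjusted p of 0.229 and 0.222 by edgeR. The L6 genes Glyma16g31250.1 and Glyma09g25500.1 had folds of 1.42 and 1.48. L10, at the base of the stalk, had 97.6% of its total in Glyma17g08370.1, at 417 in GmRAV1-ox and 358 in DN50.

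Estimates below 0 were found for 3 of the 4 L1 genes and both chloroplastic L27 genes, and for single genes of L12, L10 and S1. L1 and L27 were chosen for description after their values were seen. L1 forms the stalk that guides spent transfer RNA out of the ribosome, and in bacteria the end of L27 reaches the peptidyl transferase centre. The L1 gene Glyma09g36120.1 had 469, 475 and 541 in GmRAV1-ox and 659, 529 and 521 in DN50, a fold of 0.873 (0.619 to 1.23). Its copy Glyma12g01210.1 had 216, 211 and 206 in GmRAV1-ox and 286, 263 and 179.7 in DN50, a fold of 0.872. The weakly expressed L1 gene Glyma06g42860.1 had 11, 10.6 and 9.28 in GmRAV1-ox and 13.2, 12.5 and 10.3 in DN50, a fold of 0.859 (0.643 to 1.15). The other, Glyma12g15450.1, which KEGG assigns to a zinc transporter, lay above 0 with a fold of 1.14 (0.839 to 1.56). The L27 gene Glyma11g21150.1 had 706, 658 and 989 in GmRAV1-ox and 1035, 836 and 604 in DN50, a fold of 0.954, and the second, Glyma04g28020.1, a fold of 0.867. In all 6 the groups overlap and none was called. The signs of Glyma12g01210.1 and Glyma11g21150.1 depend on scaling: with no scaling factors their log2 fold changes were 0.01 and 0.12. Without those factors Glyma09g36120.1 came to -0.0, Glyma06g42860.1 to -0.02 and Glyma04g28020.1 to -0.02. The mitochondrial L27 gene Glyma11g13680.1 also lay below 0 with TMM, at -0.14, and above it with no scaling factors, at 0.07.

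The plastid-specific large subunit protein described as 50S ribosomal protein 6 had 1 gene, Glyma06g09420.1, with the second highest level of all members. It stood at 989, 892 and 969.9 in GmRAV1-ox and at 918, 1056 and 727 in DN50, 1.06-fold (0.759 to 1.48), and its groups overlapped.

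**Figure D4:**
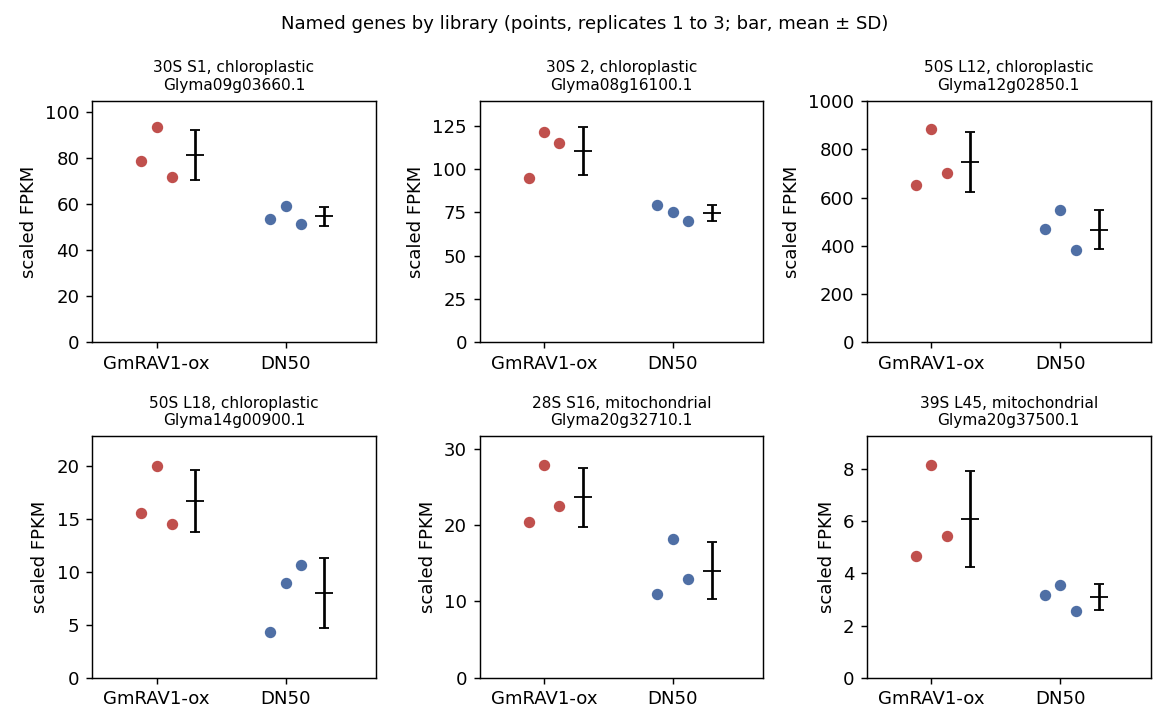
Scaled FPKM in each library for 6 named genes (points, replicates 1 to 3 from left to right; bar, mean ± SD), GmRAV1-ox left of DN50, on axes that start at 0. All 6 were picked for a small unadjusted p by edgeR among members higher in GmRAV1-ox, so their separation reflects that choice. Each has its GmRAV1-ox libraries above its DN50 libraries, as do 12.7% of all tested genes. Glyma20g37500.1, for example, is at 4.67 to 8.15 in GmRAV1-ox and 2.56 to 3.57 in DN50.

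Of mitochondrial small subunit members, the S16 gene Glyma20g32710.1 stood at 20.4, 27.9 and 22.5 in GmRAV1-ox and at 11.0, 18.2 and 12.9 in DN50, 1.69-fold (1.09 to 2.60), with an adjusted p of 0.177 by edgeR and no overlap. S16 is needed for folding of the small subunit RNA in bacteria. The S9 gene Glyma11g10000.1 had 17.3, 27.7 and 22.4 in GmRAV1-ox and 18.5, 16.1 and 14.7 in DN50, with overlap. The S31 gene Glyma06g01010.1 had 19.2, 38.2 and 29.7 in GmRAV1-ox and 30.1, 34.5 and 17.8 in DN50, 1.06-fold (0.606 to 1.86), and here both groups span nearly the same range. The S19 gene Glyma08g11250.1 averaged 7.18 in GmRAV1-ox and 6.41 in DN50.

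Mitochondrial large subunit proteins include several with no bacterial counterpart, such as L45 and L46, beside relatives of bacterial proteins. The L45 gene Glyma20g37500.1, whose human relative ties the ribosome to the inner membrane, stood at 4.67, 8.15 and 5.42 in GmRAV1-ox and at 3.16, 3.57 and 2.56 in DN50, 1.97-fold (1.18 to 3.30), with an adjusted p of 0.153 by edgeR. The gene described as 54S L19, Glyma18g01390.1, which KEGG places in the L11 family, stood at 27.2, 34.8 and 31.7 in GmRAV1-ox and at 17.4, 23.0 and 21.7 in DN50, 1.51-fold (1.12 to 2.05, adjusted p 0.147). Both genes had no overlap between groups. The L23 gene Glyma18g02050.1, the mitochondrial member with the highest level, had 39.7, 46.5 and 24.0 in GmRAV1-ox and 18.1, 33.0 and 14 in DN50, 1.7-fold (0.944 to 3.07), where GmRAV1-ox replicate 3 falls among the DN50 values.

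Further mitochondrial genes with an unadjusted p under 0.05 by edgeR were Glyma15g41870.1, a 54S L10 gene that KEGG places in the L15 family (2.05-fold, 1.14 to 3.67), and the L4 gene Glyma09g00980.1 (1.4-fold, 1.06 to 1.86). The L4 gene stood at 22.2, 22.2 and 21.8 in GmRAV1-ox and 13.6, 19.0 and 14.7 in DN50, closer together in GmRAV1-ox than in DN50. Below 0 stood the 54S L51 gene Glyma05g21810.1, at 25.4, 21.3 and 24.3 in GmRAV1-ox and 24.9, 30.6 and 24.6 in DN50, a fold of 0.890 (0.639 to 1.24) whose log2 value was 0.02 with no scaling factors. The 3 L46 genes averaged from 12.8 to 14.9, with no copy much above the others, and had log2 fold changes from 0.25 to 0.55.

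The gene Glyma13g37600.1, described as 30S S28e with no compartment, had 73.6, 94.6 and 72.7 in GmRAV1-ox and 52.2, 76.2 and 35.9 in DN50, 1.47-fold (0.948 to 2.29, adjusted p 0.284 by edgeR). The suffix e marks a protein of the eukaryotic and archaeal kind, so the 30S in its text does not place it in an organelle. The other text without a compartment, the L16 gene Glyma19g07400.1, had 3 counts, all in DN50 replicate 2.

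The 9 members that failed the filter had at most 9 counts in a library. Among them, the chloroplastic texts S12-B (Glyma05g16340.1, 10 counts over the 6 libraries), L2-A (Glyma08g36570.1, 2) and L23 (Glyma05g31230.1, 1), like L16, name proteins that the plastid genome itself encodes in most land plants. The mitochondrial ones were further copies of S31, L39, L51 and L23, and the L24 gene Glyma02g16450.1 with 36 counts. No fold is given for these genes.

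Soybean carries many genes in duplicate, and 26 of the 43 protein names had more than 1 gene, 63 genes in all. The better expressed copy made up from 35.2% (L46) to 99.3% (mitochondrial L23) of its name's total. Chloroplastic names were often uneven, with 97.6% in 1 gene for L10, 96.9% for L22 and 92.9% for L18, but S1, S5, L4, L6 and 30S ribosomal protein 2 had between 67.3 and 69.1%. The weaker L22 and L18 genes have no plastid GO term, while the weaker L10 gene has that term. Whether genes that share a name are duplicates of each other was not tested. Of the 71 tested members, 36 had at least 1 count that was not a whole number (0 tolerance), Glyma09g03660.1 and Glyma08g16100.1 among them, and the sources used here do not say how reads shared between copies were divided.

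The other genes of organelle translation had a median close to that of all genes. The list holds chloroplastic and mitochondrial elongation, initiation and release factors and the ligases that charge transfer RNA. Of 49 tested genes 0 were called by edgeR, against the same background share of 0.700%. At an unadjusted p under 0.05 there were 6 higher and 1 lower. Over all 26272 tested genes, 2785 (10.6%) were higher and 2801 lower at that threshold. The median log2 fold change was 0.06, with 28 above 0 and 21 below. DESeq2 called 0 of this list, where it called 5.81% of all genes. Limma on FPKM also called 0, where it called 100 of 28087 genes with a pseudocount of 1 and 71 with 0.1. The main plastid elongation factor Tu genes, which deliver charged transfer RNA to the ribosome, stood at 811 in GmRAV1-ox and 956 in DN50 for Glyma04g36250.1 and at 592 in GmRAV1-ox and 626 in DN50 for Glyma06g18640.1.

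The weaker plastid elongation factor Tu gene Glyma17g13370.2 had 46.6, 59.3 and 33.5 in GmRAV1-ox and 28.3, 27.6 and 14.8 in DN50, 1.99-fold (1.22 to 3.23, adjusted p 0.139 by edgeR). Leaving out GmRAV1-ox replicate 3, its log2 fold change was 1.16 and its adjusted p 0.0215, in an edgeR fit that called 18.3% of genes. The mitochondrial elongation factor Tu gene Glyma19g33570.1 had 17.7, 16.6 and 16.5 in GmRAV1-ox and 9.27, 13.3 and 9.68 in DN50, 1.58-fold (1.18 to 2.12, adjusted p 0.121). The mitochondrial elongation factor G gene Glyma01g14800.1, of the class that moves the ribosome along mRNA, had 13.4, 16.6 and 14.6 in GmRAV1-ox and 10.4, 10.6 and 10.5 in DN50, 1.42-fold (1.1 to 1.84, adjusted p 0.147). In these 3 genes the groups did not overlap. The 1 lower gene counted above is also described as a mitochondrial elongation factor Tu (partial): Glyma15g10910.1 had 0.799, 0.213 and 0.902 in GmRAV1-ox and 3.43, 1.52 and 1.53 in DN50. Its fold was 0.297 (0.114 to 0.771), with an unadjusted p of 0.0187 and an adjusted p of 0.164 by edgeR, from at most 25 counts in a library, and its groups did not overlap.

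For cytosolic ribosomal proteins, described as 40S or 60S, the log2 fold changes had a median of 0.61 over 179 tested genes. Of these, 174 lay above 0, where the share over all tested genes is 51.1%. By edgeR 0 were called, where the background share is 0.700%. At an unadjusted p under 0.05 by edgeR 88 were higher and 0 lower, where 10.6% of all tested genes were higher. DESeq2 called 5 of the cytosolic genes, where it called 5.81% of all genes. Limma on FPKM called 0 of the cytosolic genes, where it called 100 of 28087 genes with a pseudocount of 1 and 71 with 0.1. Their library medians relative to the DN50 mean were 0.62, 0.87 and 0.44 in GmRAV1-ox and 0.04, 0.44 and -0.47 in DN50, so that DN50 replicate 3 had the lowest median for them too. Without that library the cytosolic median was 0.39. Whether organelle and cytosolic genes differ in their fold changes was not tested, since the members were chosen with results known.

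Markers of cell types were read beside these values. For the 30 mesophyll genes the log2 fold changes had a median of -0.60, with 2 above 0, where the share over all tested genes is 51.1%. By edgeR 0 were called, where the background share is 0.700%. At an unadjusted p under 0.05 by edgeR 5 were lower, as were 2801 of all 26272 genes. All 3 GmRAV1-ox libraries lay below all 3 DN50 libraries for 13 and above them for 1, where the background shares are 13.4% and 12.7%. The mesophyll genes summed to 113914, 89625 and 150526 scaled FPKM in GmRAV1-ox against 169268, 142295 and 103871 in DN50. Markers of dividing cells (cyclins B and D, histone H4 and KNOLLE) had 19 of 38 genes tested, with a median of 0.52. Of the 19, 14 were above 0 and 0 were called. At an unadjusted p under 0.05 by edgeR 9 were higher, against 10.6% of all genes, and 1 was lower. Their sums were 283, 429.8 and 204 in GmRAV1-ox and 182, 199.9 and 144 in DN50. The nodule pattern matched only 2 leghemoglobin reductases, and the phloem pattern matched 0 genes. The part of cell composition in the values of ribosomal protein genes was not tested, and in whole leaves fewer cells of a type and less RNA per cell cannot be told apart.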

How the data were processed

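The authors deposited, for each of 6 libraries, expected counts (estimated counts per gene, not normalized) and FPKM values, per the file headers, together with gene-model lengths. One table over all libraries holds the same FPKM (largest difference 0) and adds KEGG, GO and protein descriptions. Per the submitters' processing notes the tools were TopHat and Cufflinks. For versions, genome build and strand, the sources used here give nothing. A gene missing from a library's table counted as 0.

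Expected counts, rounded (29.6 to 30.5% were not whole), were tested in R 4.3.3 with edgeR 4.0.16: filterByExpr (26272 genes kept), TMM factors (0.849 to 1.17), robust quasi-likelihood fit, 2-sided F test, Benjamini-Hochberg adjustment over all genes, threshold 0.05. The 95% intervals use each fitted change and its standard error. DESeq2 1.42.0 and limma 3.58.1 were alternatives. All were also run on simulated counts in which genes varied independently of each other, with limma there on CPM rather than FPKM. That simulation cannot show how the tests behave where whole libraries shift, so nothing is drawn from it. Library deviations are on log2 CPM (prior count 2).

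Genes named in detail were, by rule, those past the threshold, and in each compartment and subunit the 2 with the highest level and the 2 with the smallest p in each direction, plus those with no compartment and 3 organelle translation genes; others were named after their values were seen. Members and lists were chosen with earlier results of these data known. No pairing by replicate number is stated for these libraries, so the main fit used no block. A fit with the number as a block is given below as an alternative. Promoter motifs and protein sequences were not analysed here.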

Additional observations from a re-analysis of the deposited data

How the results depend on the processing

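With the alternatives run, the count of called mitochondrial members stayed at 0 and that of chloroplastic members at 0 or 1. It was 1 with DESeq2 (Glyma12g02850.1), 1 when GmRAV1-ox replicate 3 was left out (Glyma09g03660.1), and from 0 to 1 with each of 6 libraries left out. The chloroplastic median log2 fold change was 0.59 with no scaling factors, where the median of all genes was 0.20, and 0.57 by limma on FPKM with either pseudocount (1 or 0.1). With 1 library left out it ranged from 0.26 to 0.49, the mitochondrial median from 0.28 to 0.53 and the cytosolic one from 0.39 to 0.83. Calls over all genes, 184 in all, came to 293 with no count filter, 1764 with DESeq2, 100 by limma with a pseudocount of 1, 71 with 0.1, and from 0 to 5055 with 1 library left out: 0 without replicate 1 or 2 of GmRAV1-ox and 0 without replicate 1 or 3 of DN50, and 5055 when GmRAV1-ox replicate 3 was dropped. Cytosolic ribosomal proteins had 5 calls with DESeq2, which called 5.81% of all genes. With 1 library left out they had 0 to 24. The 24, of 180 tested, came without GmRAV1-ox replicate 3, where 18.3% of all genes were called. Without DN50 replicate 2 it was 1 of 181, where 197 of 27696 genes were called. Other organelle translation genes had 0 to 2 of 49 called with 1 library left out, the 2 also without GmRAV1-ox replicate 3.

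Same-numbered libraries deviated from their group means with correlations of -0.301, 0.398 and 0.295 for numbers 1 to 3. For GmRAV1-ox replicates 2 and 3 the best-matching DN50 library had the same number, and for replicate 1 it was DN50 replicate 2. Whether equal numbers mark paired libraries is not settled by these values. With the replicate number as a block, edgeR called 1621 of all 26272 tested genes. It called 27 of 179 cytosolic ribosomal proteins and 1 of 49 other organelle translation genes (Glyma17g13370.2, adjusted p 0.0270). Of 46 chloroplastic and 24 mitochondrial members it called 0.

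Of the 23 genes named by the rule above, 5 changed sign in an alternative, none of them called. Genes named after their values were seen are not in this count, and Glyma12g01210.1 and Glyma11g21150.1 among them changed sign too. Glyma15g14550.1 came to 0.11 with no scaling factors and by limma with either pseudocount, 0.03 without DN50 replicate 3 and 0.05 without GmRAV1-ox replicate 1, in a range from -0.23 to 0.05 over libraries left out. Glyma05g21810.1 came to 0.02 with no scaling factors and by limma, and Glyma11g13680.1 to 0.07 and 0.03. Glyma06g09420.1 came to -0.06 without DN50 replicate 3, and Glyma06g01010.1 to -0.17 without that library and -0.16 without GmRAV1-ox replicate 2, in a range from -0.17 to 0.32. With 1 library left out, Glyma06g09420.1 lay between -0.06 and 0.20. The cause was not tested. The planned search of promoters for motifs was not run. With 3 libraries per group and these depths, the intervals of most members reach from below 1-fold to above 1.5-fold.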
